A study of Arabidopsis thaliana with 6 samples.

Results

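Pectate lyases cut the homogalacturonan of plant cell walls, and 4 genes annotated in this enzyme fold are described here: *AT59* (AT1G14420), AT3G27400 and AT5G63180, which are pectate lyase genes, and AT3G15720, which belongs to the wider pectin lyase-like superfamily and is listed here with the polygalacturonase-like genes. They are 4 of 13286 genes with a probe set that names them alone, and each was read by 1 probe set, a group of short array probes to its transcript. They were chosen by their measured difference in signal between the genotypes on these same arrays, with *AT59* lower in the mutant and the other 3 higher. Their differences are therefore given as a description, with no test. RNA came from whole inflorescences of *Arabidopsis thaliana* in the Landsberg erecta background, with plants kept in continuous light at 23 °C. There were 3 arrays of the *top1α-2* mutant, which carries a mutation in a DNA topoisomerase 1 gene, and 3 of the wild type. The kind of lesion that the allele carries is not stated in the sources used here. The series calls the replicates biological. Whether each came from separate plants or growths is not stated, so p-values measure the spread between these samples, which may be in part technical. The mutated gene itself is not analysed here, and the genotype labels have no check of their own.

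Pectin is the gel-like polysaccharide of the primary wall and of the layer that glues neighbouring cells together. It is secreted in a methylated form. Pectin methylesterases remove the methyl groups, and proteinaceous inhibitors hold these enzymes back. The exposed backbone can then bind calcium and stiffen, or be cut by pectate lyases, which act by elimination, and by polygalacturonases, which act by hydrolysis. In flowers these enzymes are known for the separation of pollen grains, the opening of anthers, the shedding of organs and the growth of the pollen tube, whose tip wall is rich in pectin. Many members of each family are active in pollen, while others act in growing vegetative and floral organs.

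*AT59*, the pollen-active pectate lyase gene, had log2 signals of 6.78, 7.04 and 6.88 on the 3 *top1α-2* arrays, against 10.42, 9.44 and 9.63 on the 3 wild-type arrays. All mutant values lay below all wild-type values, and the gap between the nearest arrays was 2.40. The means were 6.90 ± 0.13 in *top1α-2* and 9.83 ± 0.52 in wild-type arrays (SD, n = 3 each). The log2 difference was −2.93 with a standard error of 0.23, a 7.62-fold lower signal in the mutant. The spread was wide in the wild type, where replicate 1 was 0.59 above its group mean and the other arrays were 0.39 and 0.20 below it. Without wild-type replicate 1 the difference was −2.64.

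AT3G27400, a pectate lyase gene, had log2 signals of 9.59, 9.40 and 9.64 in *top1α-2*, against 7.13, 7.30 and 7.12 in the wild type. Its arrays were tight in both genotypes, with means of 9.54 ± 0.13 in *top1α-2* and 7.18 ± 0.10 in wild-type arrays (SD, n = 3 each). The log2 difference was 2.36 with a standard error of 0.14, or 5.13-fold. It had the highest difference among the 4 genes and the smallest standard error.

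AT5G63180, also a pectate lyase gene, had log2 signals of 11.04, 10.53 and 10.90 in *top1α-2*, against 8.75, 8.63 and 9.07 in the wild type. The groups stood apart by 1.46, the narrowest gap among the 4 genes. Means were 10.82 ± 0.26 in *top1α-2* and 8.82 ± 0.23 in wild-type arrays (SD, n = 3 each), a log2 difference of 2.01 with a standard error of 0.16, or 4.02-fold.

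AT3G15720, of the pectin lyase-like superfamily, had log2 signals of 8.99, 9.28 and 9.15 in *top1α-2*, against 6.80, 7.18 and 6.77 in the wild type. Again all 3 mutant values lay above all wild-type values, with a gap of 1.81. Means were 9.14 ± 0.15 in *top1α-2* and 6.92 ± 0.23 in wild-type arrays (SD, n = 3 each), a log2 difference of 2.22 with a standard error of 0.17, or 4.67-fold. Of all probe sets, 28.3% had groups of 3 and 3 that did not overlap, and 9.26% were called in either direction by limma, the test used for genes outside the 4. For the 4 chosen genes nothing is read from this, since the same contrast selected them.

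**Figure D1:**
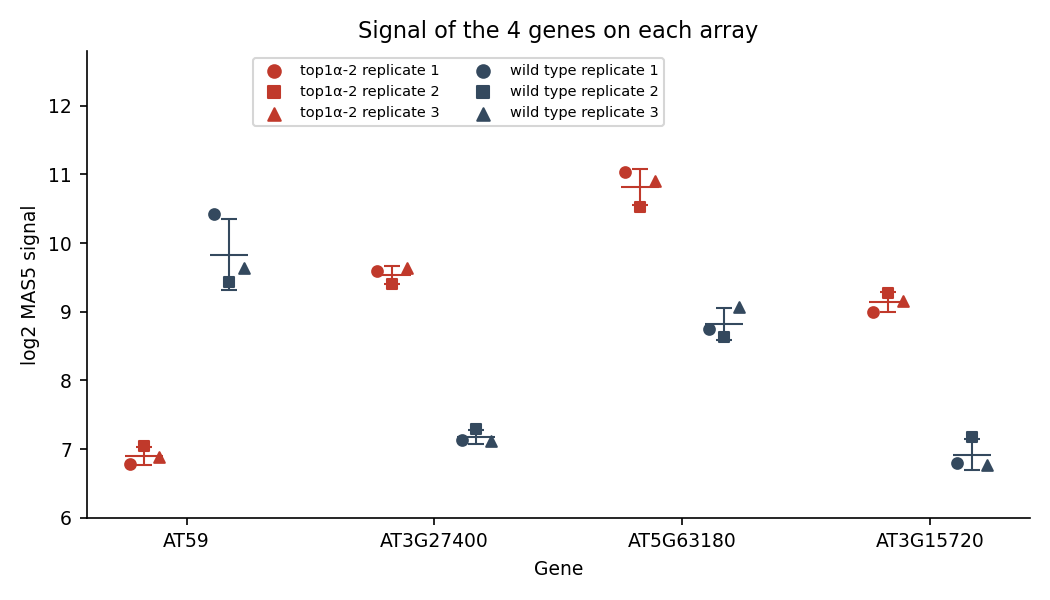
Log2 MAS5 signal (y axis) of the 4 genes (x axis) on each array, with the 3 *top1α-2* arrays left of the 3 wild-type arrays. Horizontal lines are group means and bars the SD over 3 arrays; *AT59* is lower in *top1α-2*, at 6.90 against 9.83, and the other 3 genes are higher.

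Within a genotype the 4 genes differed in which arrays were high. On wild-type replicate 1, where *AT59* was 0.59 above its mean, AT3G27400, AT5G63180 and AT3G15720 were 0.05, 0.07 and 0.12 below theirs. Within the wild type AT5G63180 was highest on replicate 3, and AT3G27400 and AT3G15720 were highest on replicate 2. In *top1α-2*, AT5G63180 and AT3G27400 were both lowest on replicate 2, by 0.29 and 0.14, whereas AT3G15720 and *AT59* were highest there, by 0.14 each. With 3 arrays a genotype these are single values and no correlation was tested.

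Markers of pollen moved in the direction of *AT59*. The marker lists were written with earlier results of these data known, so their counts are a description. Of 19 listed pollen markers 16 were measured, of which 14 were lower, 0 higher and 2 not called by limma with an adjusted p under 0.05, with a median log2 difference of −1.85 against 0.00 for all 22746 probe sets. Of all probe sets, 5.86% were called lower and 3.40% higher. The mean log2 signal of the 16 pollen markers was 7.20, 7.17 and 7.40 on the *top1α-2* arrays, against 9.39, 8.68 and 8.78 on the wild-type arrays. Wild-type replicate 1 was the highest wild-type array for all 16 measured pollen markers, as it was for *AT59*. The median log2 signal of all probe sets was also highest on it among wild-type arrays, at 7.85 against 7.74 and 7.76. Of 18 tapetum and anther markers 5 were measured and 4 were lower, with list means of at most 9.05 on the *top1α-2* arrays and up to 10.15 on the wild-type arrays, without overlap. In whole inflorescences, fewer cells of a type and less RNA per cell cannot be told apart. What part the pollen content of the harvested tissue has in the values of *AT59* was not tested.

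The 3 higher genes moved in the direction of the green tissue markers. Of 12 listed, 5 were measured and 4 were called higher by limma, against 3.40% of all probe sets. The list means were 12.17 to 12.34 in *top1α-2* and 11.25 to 11.75 in the wild type, with a median log2 difference of 0.76. The highest difference in this list was 0.79. The lowest among the 3 genes was 2.01, and they were chosen for their difference. Within the wild type the green list mean was lowest on replicate 1, at 11.25 against 11.75 and 11.71. None of the 3 genes was lowest on that array: AT5G63180 was lowest on replicate 2, and AT3G27400 and AT3G15720 on replicate 3. What part the green tissue content of the samples has in their values was not tested. Of 10 carpel and ovule markers only *SPT* was measured, with a log2 difference of 0.09 and a limma adjusted p of 0.779, and neither of the 2 petal and stamen identity genes was measured. Floral organs in the samples were thus looked at only through pollen and anther markers and *SPT*, beside the green tissue list.

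**Figure D2:**
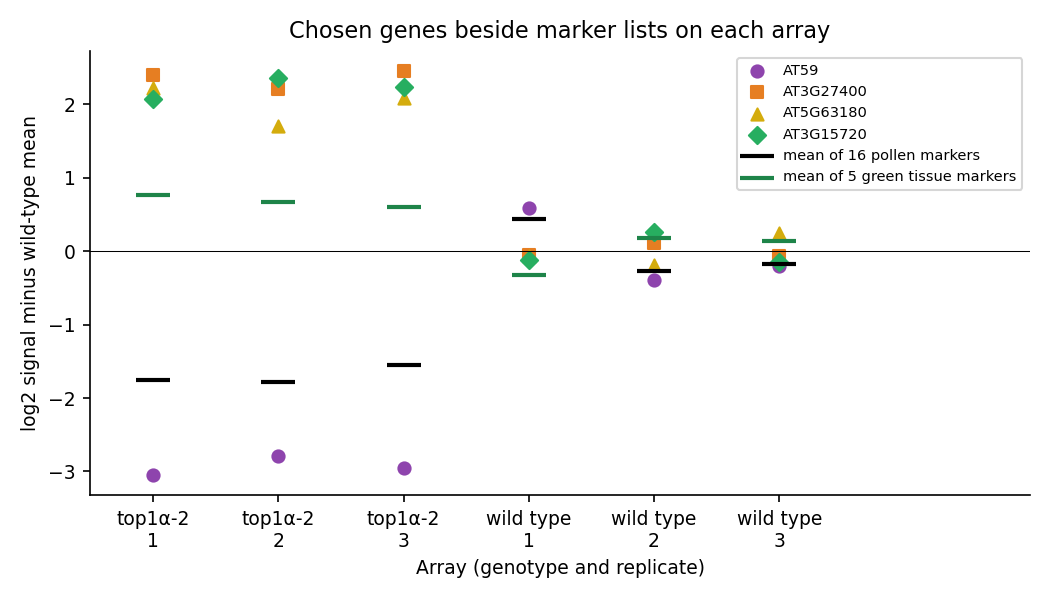
Log2 signal minus the wild-type mean (y axis) on each of the 6 arrays (x axis) for the 4 genes, and for the mean of 16 pollen markers (black bars) and of 5 green tissue markers (green bars). *AT59* lies below 0 with the pollen markers on the 3 *top1α-2* arrays, and on wild-type replicate 1 both lie above the other wild-type arrays.

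Patterns most like each gene were sought by Pearson's correlation of log2 signals over the 6 arrays, among 5868 genes with a mean signal above the median of all probe sets. That mean was taken over both genotypes, so a gene could enter through the genotype where it was high. Because the 4 chosen genes differ strongly between 2 genotypes, any gene with a tight difference in the same direction scores high. The correlations are therefore a description. *AT59* had 47 genes with a correlation above 0.99, and AT3G27400, AT5G63180 and AT3G15720 had 9, 4 and 5. The nearest to *AT59* was AT5G07420, a pectin methylesterase gene, at 0.9995, with means of 6.78 ± 0.14 in *top1α-2* and 9.25 ± 0.43 in wild-type arrays (SD, n = 3 each). It was followed by AT3G28840, AT5G54130 and AT5G50830, with log2 differences of −2.53, −0.68 and −2.32. In *top1α-2*, AT5G07420 and AT5G50830, at 6.78 and 7.56, lay below the median of 7.69, and so entered through the wild type. AT3G28840 and AT5G54130 lay above it there, at 8.67 and 8.72. The nearest to AT5G63180 was another pectate lyase gene, AT4G24780, at 0.998, followed by AT3G18280, AT4G30760 and *Hsp70-2*, a gene of a heat shock protein, with log2 differences of 1.03, 0.33 and 0.25.

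AT3G27400 was nearest to AT3G62820 at 0.9987, then to AT1G55210, AT2G25270 and *Hsp70-2*, with log2 differences of 1.18, 0.95, 1.02 and 0.25. AT3G15720 was nearest to AT1G25320 at 0.9969, then to AT5G60610, AT2G25270 and AT1G10780, with log2 differences of 0.55, 1.07, 1.02 and 0.81. AT2G25270 and *Hsp70-2* each appear for a pair of the higher genes. The order of such high correlations was not stable: with single arrays left out, between 0 and 4 of the 4 nearest genes stayed among the nearest 4.

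Beyond the 3 chosen, 20 of the other 23 genes of the pectate lyase family were measured. In *top1α-2* 6 of them fell and 3 rose, and 11 were not called by limma with a Benjamini-Hochberg adjusted p under 0.05. Over all probe sets 5.86% were called lower and 3.40% higher. The share called in the family was 45.0%, against 9.26% of all probe sets. All calls were among the 14 genes with a mean signal above the median of all probe sets, and the 6 dimmer genes had 0. The share called among the brighter probe sets alone is not given here, so the 9.26% is not matched for signal. The family median was −0.32, against 0.00 for all probe sets, and the 20 differences ran from −2.28 to 0.72.

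The 4 pectate lyase genes that fell furthest had differences from −2.28 to −1.80, smaller in size than the −2.93 of *AT59*. *AT59* was chosen for its difference, so this contrast was not tested. AT3G01270 had log2 signals of 10.73, 10.25 and 10.63 in *top1α-2*, against 13.18, 12.50 and 12.59 in the wild type, and fell by 2.22 (limma adjusted p 6.89e-05). AT2G02720 had 6.85, 6.77 and 6.43 in *top1α-2*, against 9.53, 8.57 and 8.79 in the wild type, and fell by 2.28 (limma adjusted p 0.000278). In both, as in *AT59*, AT5G15110 and AT1G30350, wild-type replicate 1 was the highest array. AT5G15110 had 7.65, 7.82 and 7.92 in *top1α-2*, against 10.31, 9.74 and 9.75 in the wild type, and fell by 2.14 (limma adjusted p 5.46e-05). AT1G30350 had 8.19, 8.32 and 8.32 in *top1α-2*, against 10.54, 9.48 and 10.20 in the wild type, and fell by 1.80 (limma adjusted p 0.000586). The genotypes did not overlap in any of the 4, and without wild-type replicate 1 their differences were −2.01, −2.0, −1.95 and −1.56.

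Smaller decreases were found in AT5G55720, at 9.60 ± 0.11 in *top1α-2* and 10.34 ± 0.19 in the wild type, and in AT5G48900, at 11.08 ± 0.18 in *top1α-2* and 11.78 ± 0.18 in wild-type arrays (SD, n = 3 each). They fell by 0.74 and 0.70, with limma adjusted p values of 0.00332 and 0.00718. With a variance prior that does not follow the signal these were 0.062 and 0.0867. No call lay between these and AT1G30350 in size. AT1G11920, at −1.14, was dim and variable, with an SE of 0.97 (limma adjusted p 0.537).

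The 3 pectate lyase genes that rose did so by less than AT3G27400 and AT5G63180. As both of those were chosen for their difference, this contrast was not tested. AT4G24780 had log2 signals of 12.04, 11.89 and 12.02 in *top1α-2*, against 11.24, 11.16 and 11.39 in the wild type, and rose by 0.72 (limma adjusted p 0.00195). AT1G67750 rose by 0.62, with means of 11.89 ± 0.27 in *top1α-2* and 11.27 ± 0.04 in wild-type arrays (SD, n = 3 each; limma adjusted p 0.0172). AT3G53190 rose by 0.60, with 11.25 ± 0.06 in *top1α-2* and 10.65 ± 0.16 in wild-type arrays (SD, n = 3 each; limma adjusted p 0.00617). The call of AT1G67750 was lost without *top1α-2* replicate 3, at 0.0504, and without wild-type replicate 3, at 0.0709. With a prior that does not follow the signal AT1G67750 and AT3G53190 had limma adjusted p values of 0.128 and 0.0745.

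The 10 other pectate lyase genes that did not pass had log2 differences from −0.39 to 0.30. AT4G13710, AT3G07010, AT3G24670 and AT4G13210 had differences of −0.33, −0.31, −0.25 and −0.23 with all mutant arrays below all wild-type arrays, and limma adjusted p values of 0.0826, 0.177, 0.396 and 0.579. AT1G04680 had a difference of 0.25 with all mutant arrays above (limma adjusted p 0.251). AT3G24230, AT5G09280, AT3G55140, AT3G09540 and AT5G04310 had overlapping arrays, with differences of −0.39, −0.38, −0.10, 0.30 and 0.20. In all, 14 of the 20 genes had arrays that did not overlap, 4 with the mutant above and 10 with it below, against 28.3% of all probe sets in either direction.

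**Figure D3:**
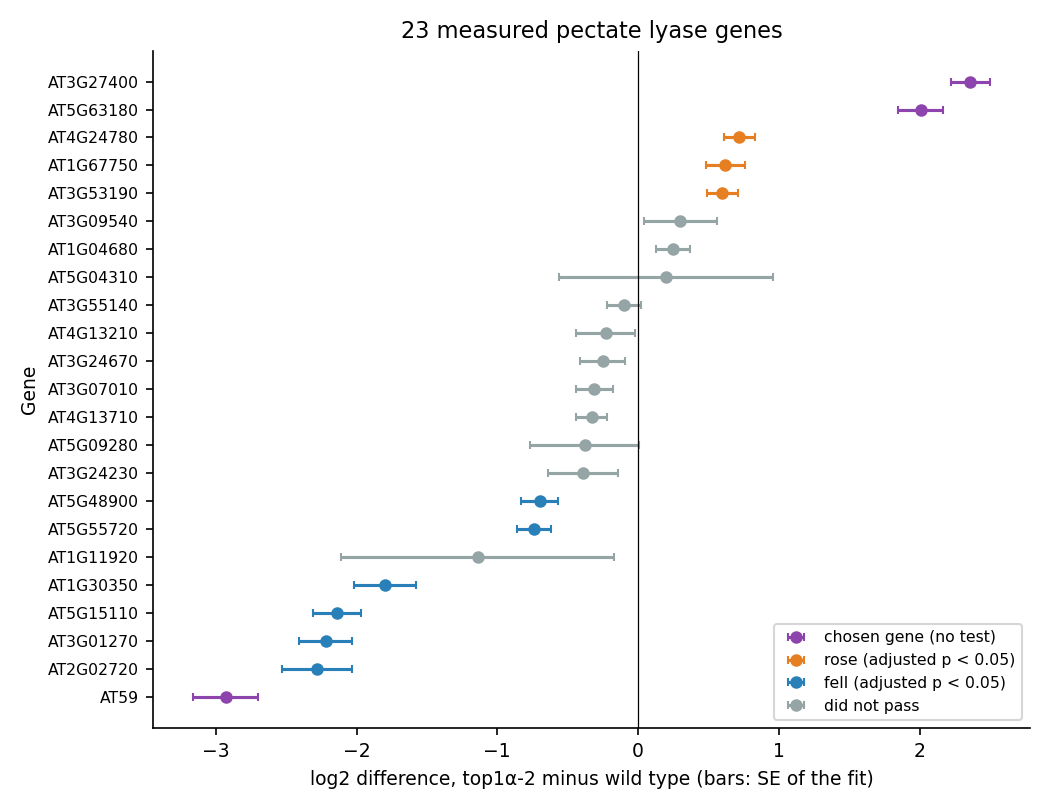
Log2 difference, *top1α-2* minus wild type (x axis), of the 23 measured pectate lyase genes (y axis), with the standard error of the fit as bars. The 3 chosen genes (purple) lie at both ends, at −2.93, 2.01 and 2.36, with 4 genes that fell between −2.28 and −1.80 and the 3 genes that rose between 0.60 and 0.72.

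Of the 66 polygalacturonase-like genes other than AT3G15720, 45 were measured, of which 6 fell, 0 rose and 39 were not called by limma. Before adjustment 10 were lower and 1 was higher at a limma p under 0.05. The share of all probe sets at that unadjusted threshold is not given here, so nothing is read from these counts. The share called was 13.3%, against 9.26% of all probe sets, and the median was −0.14. The highest difference among the 45 was 1.19, in a gene that was not called, against 2.22 for AT3G15720. As AT3G15720 was chosen for its difference, this contrast was not tested.

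AT3G07820, a polygalacturonase gene, had log2 signals of 10.81, 10.48 and 10.72 in *top1α-2*, against 13.34, 12.87 and 12.84 in the wild type, and fell by 2.35 (limma adjusted p 2.49e-05). Its neighbour AT3G07840 fell by 2.23, AT5G48140 fell by 2.25, AT2G23900 fell by 1.64 and AT3G42950 fell by 0.78. These 4 genes had limma adjusted p values from 0.000133 to 0.00185. AT4G35670 fell by 2.72 and was dim, with means of 4.75 ± 0.28 in *top1α-2* and 7.47 ± 1.11 in wild-type arrays (SD, n = 3 each; limma adjusted p 0.00672). With a prior that does not follow the signal its adjusted p was 0.0708. Similar neighbouring genes such as AT3G07820 and AT3G07840 can share probe signal, and 5 further probe sets that name several polygalacturonase-like genes or others with them were not used.

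Pectin methylesterase genes, whose products prepare the substrate of pectate lyases, were also mostly lower where they were called. Of 67 listed 45 were measured, of which 13 fell, 2 rose and 30 were not called, 33.3% called against 9.26% of all probe sets, with a median of −0.12. The highest difference, 2.28, was in a gene that was not called. The lower count was 8 without wild-type replicate 1, 5 with a prior that does not follow the signal and 7 without the dimmest 50% of probe sets. AT5G07420, the gene nearest to *AT59* in pattern, had log2 signals of 6.67, 6.94 and 6.72 in *top1α-2*, against 9.74, 8.98 and 9.03 in the wild type, and fell by 2.47 (limma adjusted p 7.8e-05). AT3G05610 had 7.77, 7.83 and 7.84 in *top1α-2*, against 10.70, 10.02 and 10.21 in the wild type, and fell by 2.50 (limma adjusted p 2.49e-05). AT5G07430, a neighbour of AT5G07420 that may share signal with it, fell by 1.99, AT2G26450 by 1.90 and AT3G06830 by 1.62. The last had a limma adjusted p of 0.00285, and of 0.0507 with a prior that does not follow the signal.

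Among the dimmer methylesterase genes, AT4G33230, AT5G27870 and AT5G51500 had means of 3.96, 4.03 and 4.61 in *top1α-2* and 6.65, 6.44 and 6.95 in the wild type. Their log2 differences were −2.69, −2.41 and −2.34, all decreases, with limma adjusted p values of 0.017, 0.0244 and 0.0218. Each lost its call when certain arrays were left out. For AT4G33230 these were *top1α-2* replicate 1 and wild-type replicates 1 and 2, at 0.0554, 0.0586 and 0.0529. For AT5G27870 they were *top1α-2* replicates 1 and 2 and wild-type replicates 1 and 3, at 0.0588, 0.0511, 0.0973 and 0.064. For AT5G51500 they were *top1α-2* replicate 3 and wild-type replicates 1 and 3, at 0.0539, 0.0674 and 0.0739. With a prior that does not follow the signal their limma adjusted p values were 0.0915, 0.0953 and 0.113.

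The 2 methylesterase genes that rose are named after their values were seen. *ATPMEPCRB* had log2 signals of 9.07, 9.06 and 8.95 in *top1α-2*, against 7.93, 7.79 and 8.27 in the wild type, and rose by 1.03 (limma adjusted p 0.00167). AT3G10720 rose by 0.73, with means of 9.63 ± 0.15 in *top1α-2* and 8.89 ± 0.16 in wild-type arrays (SD, n = 3 each; limma adjusted p 0.0045). With a prior that does not follow the signal the adjusted p of AT3G10720 was 0.0619.

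Of 18 genes for inhibitors of pectin methylesterases 12 were measured, of which 3 fell and 1 rose, 33.3% called against 9.26% of all probe sets, with a median of −0.15. All calls were among the 9 genes with a mean signal above the median of all probe sets, and the 9.26% is not matched for signal. AT1G10770 had log2 signals of 10.64, 10.08 and 10.16 in *top1α-2*, against 12.84, 12.57 and 12.51 in the wild type, and fell by 2.35 (limma adjusted p 2.83e-05). *APPB1*, of the same family, fell by 1.73 (limma adjusted p 0.000542). AT1G62760 fell by 1.34 with a limma adjusted p of 0.0147, which was 0.0562 without wild-type replicate 3. AT5G20740 rose by 0.60 with a limma adjusted p of 0.0193, which was 0.0819 and 0.0891 without *top1α-2* replicates 1 and 3. With a prior that does not follow the signal the last 2 genes had 0.124 and 0.139.

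Genes of other pectin-degrading enzymes, the rhamnogalacturonan lyases and pectin acetylesterases, gave no call. Of 19 listed 11 were measured, with differences from −0.71 to 0.40 and a median of 0.02. By limma 0 passed, against 9.26% of all probe sets called. At an unadjusted p under 0.05 there were also 0, a threshold with no share of all probe sets given here. Without wild-type replicate 1 there was 1 higher. Pectin synthesis was measured by 1 of 38 listed genes, the glycosyltransferase gene *GAUT15*, with a log2 difference of 0.44 and a limma adjusted p of 0.0973, so the making of pectin was in effect not measured.

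Over these 6 lists without the 4 chosen genes, 134 of 231 genes were measured, 28 fell, 6 rose and 100 were not called. The share called was 25.4%, against 9.26% of all probe sets. With a prior that does not follow the signal 16 fell and 2 rose. After the arrays were centred on their medians 26 fell and 7 rose. For all probe sets that step moved the calls to 1153 higher and 1167 lower, in place of 773 and 1334. Of the 28 genes that fell, 24 had wild-type replicate 1 as their highest wild-type array, and of the 6 that rose 1 did. Among wild-type arrays replicate 1 also had the highest median log2 signal over all probe sets, 7.85 against 7.74 and 7.76. The share of all probe sets that were highest on it is not given here. Of the 6 that rose, 3 belong to the pectate lyase family, 2 to the methylesterases and 1 to the inhibitors.

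**Figure D4:**
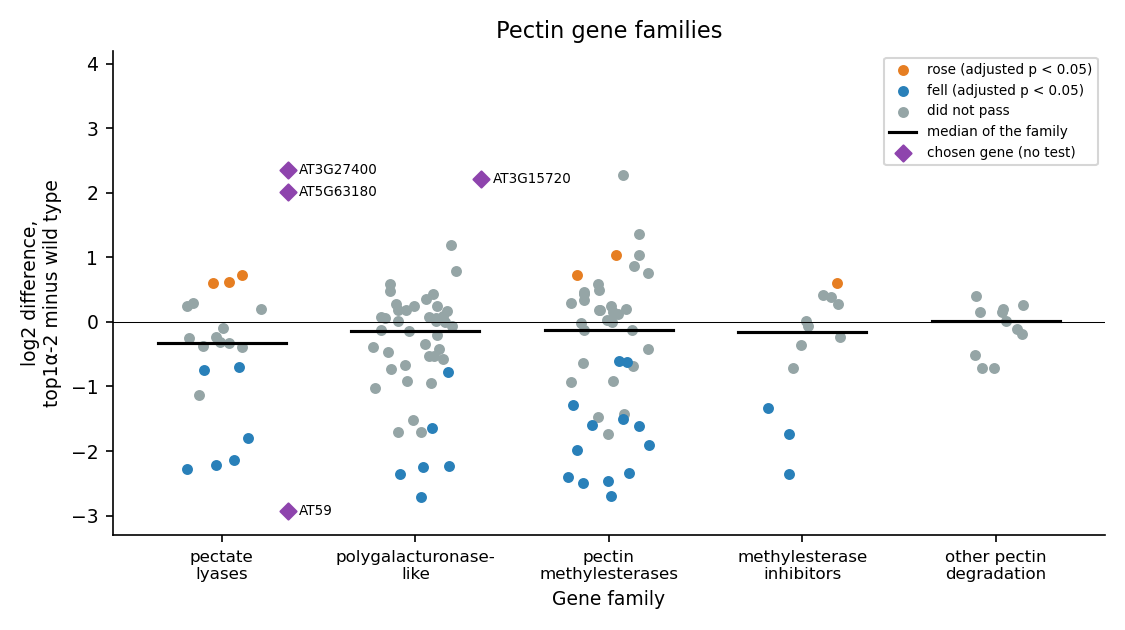
Log2 difference, *top1α-2* minus wild type (y axis), of each measured gene in 5 pectin gene families (x axis), coloured by the limma call, with the family median as a black line and the 4 chosen genes as purple diamonds. Of 133 genes shown beside the diamonds 28 fell and 6 rose, and AT3G27400, AT5G63180 and AT3G15720 lie above every gene that rose. The chosen genes were selected by this same difference.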

How the data were processed

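The authors deposited log2 signals, made with affy and MAS5 per the submitters' processing notes, which name no version. The trimmed mean of the unlogged signal was 500 on every array, so the arrays had been scaled. Replicate numbers come from the labels. Over 11369 brighter probe sets the correlation between arrays was 0.978 to 0.985 within *top1α-2*, 0.955 to 0.977 within the wild type and 0.887 to 0.938 between them. The number of arrays, 3 per genotype, limits the precision, and detection calls were not used.

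From the 22810 probe sets 64 controls were set aside, and 22746 entered limma 3.58.1 (R 4.3.3) with genotype as the sole term, eBayes with trend, meaning that the variance prior depends on signal, and Benjamini-Hochberg adjustment over all. Called means an adjusted p under 0.05. The code of the fit was run on simulated data with known differences added. These had independent noise and no array effects, so they do not show how reliable the calls on these arrays are. Differences are *top1α-2* minus wild type. The platform annotation names 1 gene for 13513 probe sets, and 13436 matched RefSeq (TAIR10.1, used for names only). A gene with several probe sets was read by the brightest.

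The members, lists and tests were chosen with earlier results of these data known. The pectin lists were written from family membership, and the marker lists name genes picked for a cell type or tissue. Named are all measured pectate lyases, up to 8 called genes of each other list and the 4 genes most like each member, except where a name was added after its values were seen. Planned comparisons of protein sequence were not run. Alternatives were quantile normalization, median centring, a pseudocount of 16, leaving out the dimmest 50% of probe sets, a prior without trend, the replicate number as a block and leaving out single arrays.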

Additional observations from a re-analysis of the deposited data

Results flagged for a closer look

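In control probe sets outside the comparison, the 3′ minus 5′ log2 signal of an actin control had means of 4.03 ± 0.07 on *top1α-2* arrays and 3.57 ± 0.19 on wild-type arrays (SD, n = 3 each), 0.46 higher in the mutant without overlap. The 5 other control ratios overlapped between the genotypes.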

How the results depend on the processing

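The differences of *AT59*, AT3G27400, AT5G63180 and AT3G15720 kept their direction under every alternative run. With single arrays left out they ran from −3.12 to −2.64, 2.31 to 2.43, 1.90 to 2.15 and 2.15 to 2.36. A pseudocount of 16 gave 2.24 for AT3G27400, in place of 2.36. With a variance prior without trend, calls over all probe sets were 209 higher and 633 lower, and among the pectin genes outside the 4 they were 2 higher and 16 lower; the cause was not tested. With single arrays left out the calls over all probe sets were 357 to 794 higher and 975 to 1335 lower, and among those pectin genes 5 to 7 higher and 23 to 28 lower. Without *top1α-2* replicates 1, 2 and 3 the higher calls over all probe sets were 357, 411 and 373. Of 29 named pectin genes that were called, 23 kept their call with each array left out, 12 lost it with the prior without trend and 0 lost it under quantile normalization, median centring, the pseudocount or the replicate block. The filter on dim probe sets removed 7 of the 29 from testing, and the other 22 kept their call. That filter used the mean over both genotypes, so a gene could pass through the genotype where it was high. It also left fewer tests to adjust for, so the kept calls are no independent check. The uncalled AT5G04310, which ran from −0.46 to 0.91 with single arrays left out, turned to −0.07, −0.10 and −0.46 without *top1α-2* replicate 1, *top1α-2* replicate 2 and wild-type replicate 2. After removal of the dimmest 50% of probe sets 7 methylesterase genes were lower, in place of 13, as fewer were tested. Same-numbered arrays of the genotypes had deviations that correlated at 0.095, 0.089 and 0.208, each higher than with other numbers, a hint from the data and not from the design that the numbers pair the arrays. With the replicate block the calls were 748 higher and 1342 lower over all probe sets, and 7 higher and 27 lower among the pectin genes. Alternatives for the correlations with the nearest genes were chosen after seeing the data.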
